A study of Danio rerio with 34 samples.

Results

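The regions described here are the 500 bp tiles of zebrafish chromosome 4 whose methylation was called different between *dnmt1* mutants and siblings in endothelial cells (ECs), hemogenic endothelial cells (HECs) or hematopoietic stem and progenitor cells (HSPCs). They were chosen by those calls and by their chromosome alone, from the union of the 3 lists of differentially methylated regions (DMRs) deposited for the cell types. This gave 14891 tiles of 371484 in the series. Every tile was named by its first and last base on chromosome 4 of GRCz11, counted from 1. The lists hold no methylation level, no direction of change, no coverage and no *P*-value for a tile. What is described is therefore where listed tiles lie and which lists they share, and the tiles just inside and just outside the authors' threshold could not be given.

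Whole genome bisulfite sequencing (WGBS) covered 18 samples, with 3 *dnmt1* mutant and 3 sibling samples for each of ECs, HECs and HSPCs. Mutants carried the *dnmt1*-s872 allele. Whether the sibling embryos were wild type or heterozygous was not given in the sources used here. All embryos were 36 hpf, carried Tg(*kdrl*:mCherry), which labels endothelium, and Tg(*runx1*:en-GFP), which labels cells with *runx1* enhancer activity, and were sorted from the trunk, a region the labels call AGM, at 500 cells per sample by the study's methods. The labels instead describe sorting of single cells. Each list was called once on all 6 samples of a cell type, so the lists give no value per replicate. The depth of each call is unknown, and intervals below cover counting error over tiles only. Neighbouring tiles are not independent of each other. The calls chose the regions, so no test was run and the values are descriptions.

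Dnmt1 copies the methylation of CpG sites onto the new DNA strand after replication, together with Uhrf1, which recognizes the half-methylated sites. Without it, methylation is diluted as cells divide. The zebrafish genome is methylated at most CpGs, including repeats. Chromosome 4 is known for its long arm, which replicates late, is heterochromatic and rich in repeats, and carries large families of NLR immune genes and zinc finger genes together with 5S ribosomal RNA genes. In natural strains it also carries a sex-linked region. The position of the centromere and the genes under the tiles were not analysed here, since no annotation of GRCz11 was at hand, and no tile sequence is shown for the same reason.

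Chromosome 4 held the fewest listed tiles per megabase of all 25 chromosomes in every cell type. It had 5449 tiles in ECs, 4786 in HECs and 8981 in HSPCs, which covered 2724500, 2393000 and 4490500 bp. These made up 4.10%, 4.06% and 4.05% of each whole list, scaffolds included. On the 25 chromosomes alone, chromosome 4 held 4.22% of the union and 5.80% of all 500 bp tile positions. Positions were counted along each chromosome up to the last tile of any deposited list, which on chromosome 4 gave 78.065 Mb and 156130 positions. The union reached from the tile at chr4:1501-2000 to the one at chr4:78064501-78065000.

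In ECs 3.49% of the positions of chromosome 4 were listed (95% exact binomial interval 3.40 to 3.58), against 4.77% on the other 24 chromosomes and 4.69% genome-wide. In HECs the share was 3.07% (2.98 to 3.15) on chromosome 4 and 4.24% elsewhere, with 4.17% genome-wide. In HSPCs it was 5.75% (5.64 to 5.87) on chromosome 4 and 7.97% elsewhere, with 7.84% genome-wide. For the union the shares were 9.54% on chromosome 4, 13.3% elsewhere and 13.1% genome-wide. Not every position need have been covered by reads in both genotypes, so these shares are lower than those among tiles that could have been tested. The shortfall was alike in the cell types, with a density on chromosome 4 of 0.732 times that of the other chromosomes in ECs, 0.722 times in HECs and 0.722 times in HSPCs.

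Per megabase, chromosome 4 had 69.8 EC tiles, 61.3 HEC tiles and 115 HSPC tiles. The next sparsest was chromosome 18 in each list, with 80.4, 72.03 and 132 per megabase. Chromosome 19 was densest, with 124, 112 and 208.

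**Figure D1:**
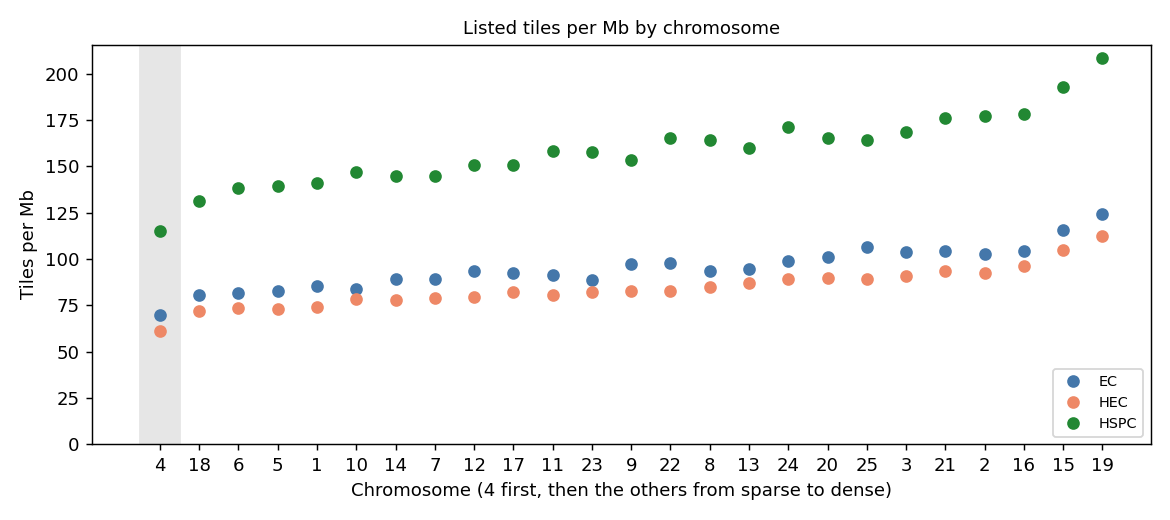
Listed tiles per megabase (vertical axis) on each chromosome (horizontal axis, chromosome 4 first and shaded) for ECs (blue), HECs (orange) and HSPCs (green), 1 point per list. Chromosome 4 is lowest in each list, at 69.8, 61.3 and 115 tiles per megabase, and chromosome 19 is highest.

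The tiles were spread very unevenly along the chromosome, and in a broadly similar way in ECs, HECs and HSPCs. Of its 78 full 1 Mb bins none was empty in any list. A bin held from 13 to 207 EC tiles (median 55.5), from 10 to 197 HEC tiles (median 44.5) and from 19 to 347 HSPC tiles (median 85.5). For the union the range was 31 to 536 with a median of 142.5. The 39 bins with the fewest tiles held 24.5% of the union tiles in full bins.

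The bin counts of the cell types rose and fell together. Over the 78 bins, Pearson's *r* was 0.959 between ECs and HECs, 0.959 between ECs and HSPCs and 0.974 between HECs and HSPCs, with Spearman's rho at 0.956, 0.955 and 0.962. Both were lower within parts of the chromosome. In the bins from 31 to 72 Mb, a sparse stretch described below, *r* was 0.859, 0.893 and 0.901 and rho 0.862, 0.879 and 0.873. In the other bins *r* was 0.920, 0.912 and 0.935 and rho 0.862, 0.835 and 0.846. Bins share their sequence, CpG content and ease of mapping between cell types, and the part of each in these correlations was not tested.

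The densest bin was the first megabase, chr4:1-1000000, with 536 tiles in the union, of which 207 were listed in ECs, 197 in HECs and 347 in HSPCs. The second was near the other end, chr4:72000001-73000000, with 455 in the union and 177, 140 and 300 in the lists of ECs, HECs and HSPCs. The bins starting at 13, 6 and 3 Mb followed with 414, 411 and 374 tiles in the union. Except for the one at 72 Mb, these bins lay in the first 14 Mb.

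The sparsest bin was chr4:46000001-47000000, with 31 tiles in the union, of which 13 were listed in ECs, 12 in HECs and 19 in HSPCs. Next came chr4:23000001-24000000 with 44 in the union and 13, 10 and 28 in the cell types. It stood between richer bins, with 147 tiles in the bin before it and 317 in the bin after it. The bins starting at 45, 66 and 43 Mb had 47, 55 and 64 tiles in the union. Except for the one at 23 Mb, these bins lay between 31 and 72 Mb.

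**Figure D2:**
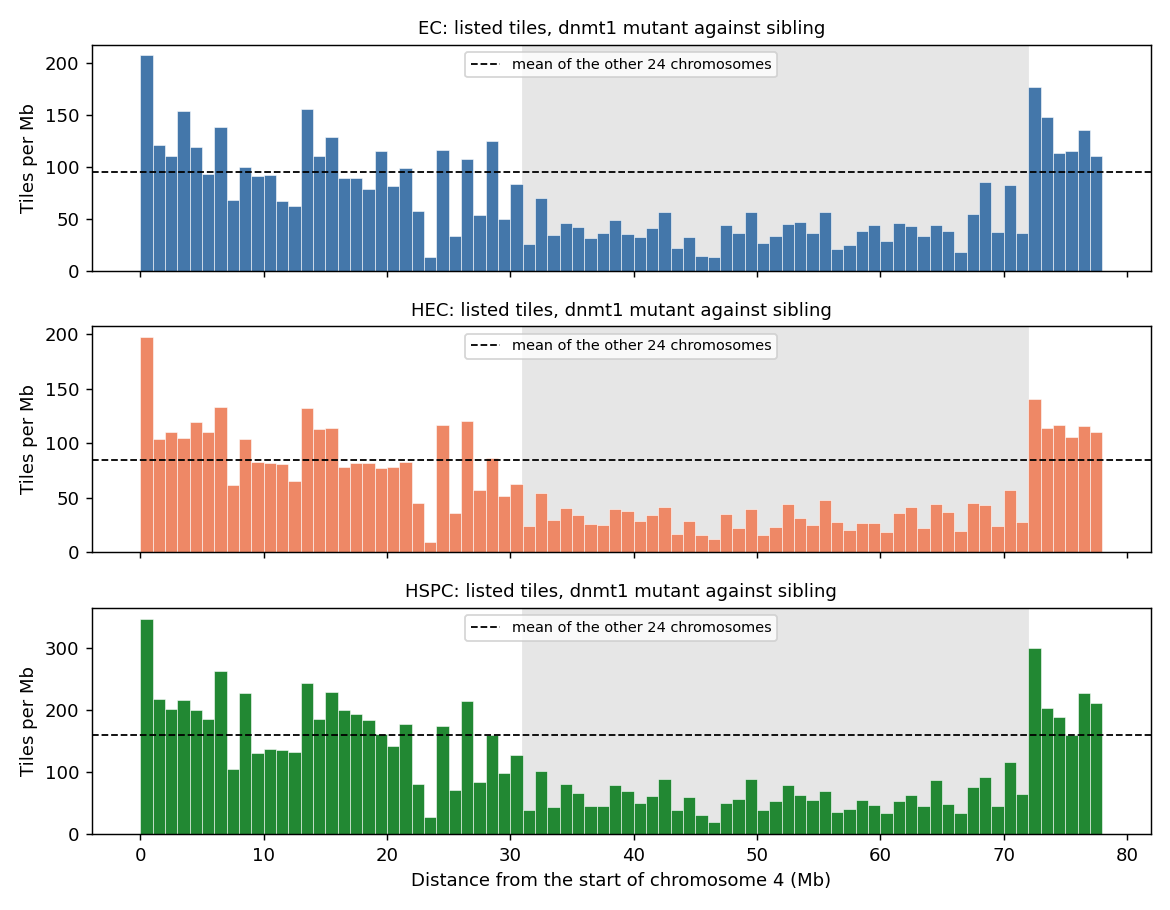
Listed tiles in each full 1 Mb bin of chromosome 4 (vertical axis) against distance from its start (horizontal axis) for ECs, HECs and HSPCs, with the mean of the other 24 chromosomes as a dashed line (95.4, 84.9 and 159 tiles per megabase) and the stretch from 31 to 72 Mb shaded. The shaded stretch lies below the line in every bin and list, and both sides of it hold denser bins.

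A round boundary at 25 Mb, set from general knowledge of a long repeat-rich arm, gave fewer tiles per megabase beyond it than before it. From 25 Mb to the end there were 54.6 EC tiles, 45.6 HEC tiles and 84.4 HSPC tiles per megabase. In the first 25 Mb there were 102, 94.6 and 180. The density beyond the boundary was 0.534 times that before it in ECs (95% exact binomial interval 0.506 to 0.563), 0.482 times in HECs (0.455 to 0.510) and 0.469 times in HSPCs (0.450 to 0.489).

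This boundary joined unlike parts. From 31 to 72 Mb every bin was below the mean of the other chromosomes in each list, and beyond 72 Mb the counts were high again. The limits of 31 and 72 Mb were picked on these counts, so differences across them are given as a description only. The step at 72 Mb was abrupt, with 105 tiles of the union in the megabase before it and 455 in the megabase after it. In windows of 100 kb, the union held 3 to 17 tiles per window over the megabase before 72 Mb and 31 to 79 per window over the megabase after it, so the windows on both sides did not overlap. The fall near 31 Mb was uneven, with 204 tiles in the bin starting at 30 Mb, 71 in the one at 31 Mb and 166 in the one at 32 Mb. There the 100 kb windows held 6 to 55 tiles of the union over the megabase before 31 Mb. Over the megabase after it they held 1 to 18, so the windows on both sides of 31 Mb overlapped.

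The stretch from 31 to 72 Mb made up 52.5% of the length of chromosome 4 and held 28.0% of its tiles. It had 1633 EC tiles, 1296 HEC tiles and 2421 HSPC tiles, or 39.8, 31.6 and 59.0 per megabase. The rest of the chromosome had 3816, 3490 and 6560, or 103, 94.2 and 177 per megabase. The densities within the stretch were 0.387, 0.336 and 0.334 times those of the rest in ECs, HECs and HSPCs.

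Outside the stretch the densities were near or above those of the other chromosomes. The first 31 Mb of chromosome 4 had 97.0 EC tiles, 89.7 HEC tiles and 170 HSPC tiles per megabase, against 95.4, 84.9 and 159 on the other chromosomes. From 72 Mb to the end chromosome 4 had 134, 117 and 215 per megabase, 1.40, 1.38 and 1.35 times the other chromosomes. The whole of chromosome 4 outside the stretch was at 1.08 times their density in ECs, 1.1096 times in HECs and 1.1104 times in HSPCs. The sparse bins were left out of this part of chromosome 4 by choice and kept on the other chromosomes, so these ratios are not a like comparison.

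The dense last megabases were like chromosome ends elsewhere. The 6 full bins of chromosome 4 from 72 Mb on held a median of 354.5 tiles of the union, with a range of 300 to 455. On the other 24 chromosomes the median was 357.5 over the last 6 full bins, 365 over the first 6 and 235 between them.

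The lowest windows of the same length were set side by side for the chromosomes. Among all windows of 41 consecutive full bins, the lowest on chromosome 4 began at 31 Mb and averaged 102 tiles of the union per megabase. On the other 22 chromosomes long enough to hold such a window, the lowest was on chromosome 6 at 170. The length was taken from the counts of chromosome 4, and on a shorter chromosome such a window takes in most of the sequence, dense ends included. On chromosomes 5 and 7, the nearest to it in length, the lowest windows averaged 176 and 204. The 5th percentile of the 1258 full bins of the other chromosomes was 75.7 tiles of the union. On chromosome 4, 10 of 78 bins (12.8%) lay below it, 9 of them within the stretch, against 63 of 1258 (5.01%) on the other chromosomes, where the percentile fixes the share. All 41 bins of the stretch were below the median of the other chromosomes (266 tiles), as were 12 of the 37 bins outside it. The limits of the stretch were picked on these counts, so its bins were low by that choice.

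The longest part of chromosome 4 without a tile was in the same place in each cell type. It was chr4:45632501-46455500 in ECs, 823 kb long, and neither HECs nor HSPCs had a tile there. In HECs it was chr4:45557001-46476000, 919 kb long, with 2 EC and 2 HSPC tiles inside. In HSPCs it was chr4:45632501-46488000, 855.5 kb long, with 2 EC tiles and 1 HEC tile inside. Windows of 100 kb without a tile of the union numbered 33 of 780 on chromosome 4 (4.23%), 21 of them in the stretch, and 615 of 12657 on the other chromosomes (4.86%). For single lists the share of empty windows was higher on chromosome 4, at 9.23% in ECs, 12.4% in HECs and 7.95% in HSPCs, against 8.56%, 9.27% and 6.75% elsewhere.

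HSPCs had the most tiles in all 78 bins of chromosome 4. Its ratio of HSPC to EC tiles was 1.65, against 1.67 on the other chromosomes, and its ratio of HSPC to HEC tiles was 1.88, against 1.88. Chromosome 4 ranked 10th and 13th from the lowest of the 25 in these ratios. The excess of HSPC tiles was therefore of the usual size here.

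Along the chromosome the ratio of HSPC to EC tiles was lower in the sparse stretch. It was 1.48 there and 1.72 in the rest of the chromosome. Medians over bins were 1.49 and 1.69, against 1.65 over the bins of the other chromosomes. In 31 of the 41 bins of the stretch, and in 13 of the 37 others, the ratio was under the 1.67 pooled over the other chromosomes. The ratio of HSPC to HEC tiles did not follow this, at 1.87 in the stretch and 1.88 in the rest, with 20 of 41 and 19 of 37 bins below the other chromosomes. ECs thus had more tiles in the stretch relative to both of the other cell types. The ratio of HEC to EC tiles was 0.794 in the stretch, 0.915 in the rest and 0.890 on the other chromosomes. The bin starting at 59 Mb had the lowest ratio of HSPC to EC tiles, at 47 against 44, and the bin at 18 Mb had the highest, at 184 against 79.

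**Figure D3:**
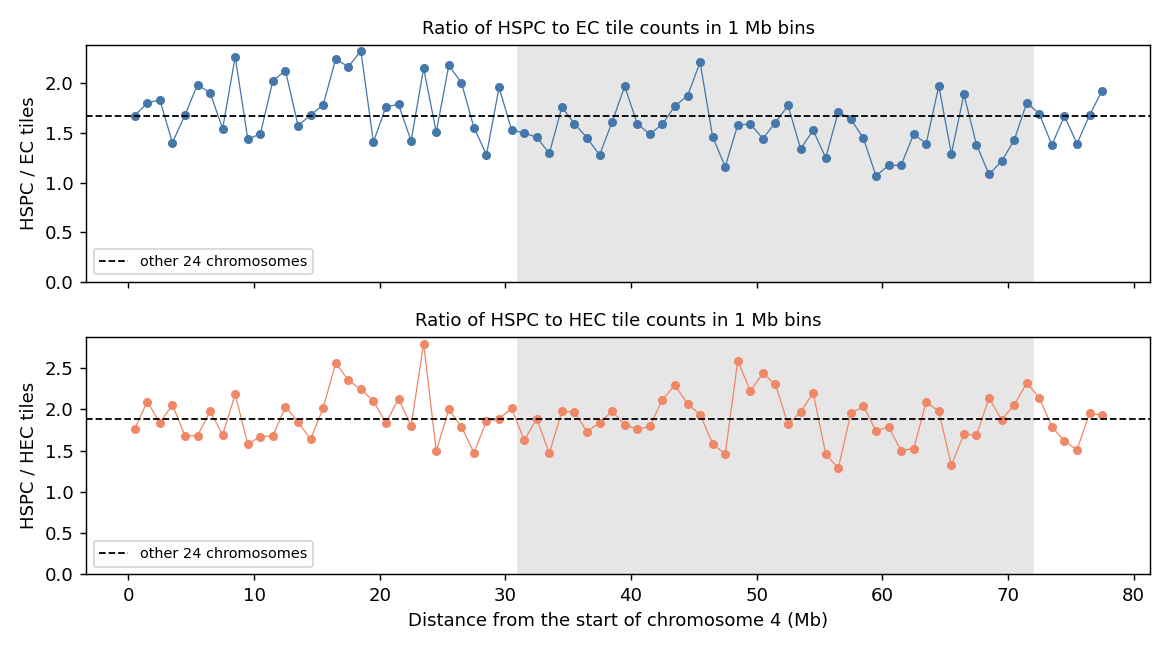
Ratio of HSPC to EC tile counts (upper panel) and of HSPC to HEC tile counts (lower panel) in each full 1 Mb bin of chromosome 4, against distance from its start, with the ratio of the other 24 chromosomes dashed (1.67 and 1.88) and the stretch from 31 to 72 Mb shaded. In the upper panel 31 of the 41 shaded bins lie under the line, and in the lower panel 20 of 41.

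Most tiles of chromosome 4 were listed in a single cell type. Of the 14891 tiles, 2904 were listed in ECs only (19.5%), 2408 in HECs only (16.2%) and 5780 in HSPCs only (38.8%). A further 598 were shared by ECs and HECs, 1421 by ECs and HSPCs and 1254 by HECs and HSPCs, in each case without the remaining cell type. All 3 lists held 526 tiles (3.53%), so that 3799 tiles (25.5%) were in 2 or more lists. On the other chromosomes 3.12% of the union was in all lists and 24.2% in 2 or more.

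Of the EC tiles on chromosome 4, 20.6% were also HEC tiles (95% exact binomial interval 19.6 to 21.7) and 35.7% were also HSPC tiles (34.5 to 37.0). Of the HEC tiles, 23.5% were in ECs (22.3 to 24.7) and 37.2% in HSPCs (35.8 to 38.6). Of the HSPC tiles, 21.7% were in ECs (20.8 to 22.5) and 19.8% in HECs (18.999 to 20.7). These shares exceeded the share of all positions of chromosome 4 in the other list, which was 3.49% for ECs, 3.07% for HECs and 5.75% for HSPCs. Tiles that can be called at all need reads and CpGs, which positions without either lack in every list, and the part of this in the sharing was not tested.

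Chromosome 4 as a whole was among the chromosomes with the most sharing. The share of HEC tiles found in ECs and of HSPC tiles found in ECs was higher than on any other chromosome, where the lowest were 19.3% and 18.9%, both on chromosome 23. The share of EC tiles found in HECs ranked 24th of 25, behind chromosome 19 at 20.7%. The margins were small, since the other chromosomes together had 18.995% of EC tiles in HECs, 21.3% of HEC tiles in ECs and 20.5% of HSPC tiles in ECs. For EC and HEC tiles found in HSPCs chromosome 4 ranked 22nd and 21st, at 35.7% and 37.2% against 34.2% and 35.8% on the others.

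Sharing in the sparse stretch was lower for EC tiles and nearly the same for HEC and HSPC tiles. There 17.9% of EC tiles were in HECs (16.1 to 19.9) and 33.2% in HSPCs (30.9 to 35.5), against 21.8% (20.5 to 23.1) and 36.8% (35.3 to 38.4) in the rest of chromosome 4. On the other chromosomes these shares were 18.995% and 34.2%, within the intervals of the stretch. HEC tiles were in HSPCs at 37.3% in the stretch and 37.2% in the rest, and HSPC tiles were in HECs at 19.95% and 19.8%. HEC tiles were in ECs at 22.6% in the stretch and 23.8% in the rest, and HSPC tiles were in ECs at 22.4% and 21.4%. The same 293 tiles shared by ECs and HECs in the stretch were 17.9% of its EC tiles and 22.6% of its HEC tiles. The share of positions in the other list was much lower in the stretch, at 1.99% for ECs, 1.58% for HECs and 2.95% for HSPCs. Sharing was 11.2 to 12.6 times the share of positions in the stretch. It was 4.16 to 4.63 times that share in the rest of the chromosome and 4.30 to 4.50 times on the other chromosomes. The limits of the stretch were picked on low counts, which lowers its shares of positions. Its higher ratios therefore do not show more sharing there. The number of positions with enough reads is not in the lists, and a lower number in the stretch would lower its ratios.

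**Figure D4:**
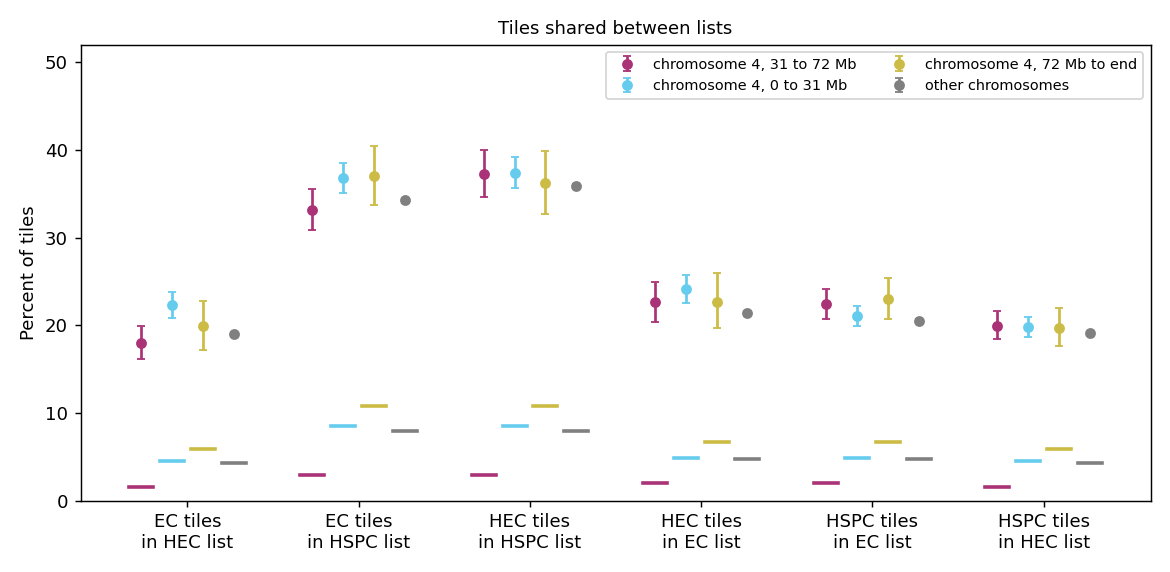
Percent of the tiles of one list that are also in another (points, with 95% exact binomial intervals) and percent of all tile positions that are in the other list (short lines) for the stretch from 31 to 72 Mb, the first 31 Mb and the last part of chromosome 4, and for the other chromosomes. The points of the stretch lie near the others, from 17.9% to 37.3%, whereas its short lines are lowest, from 1.58% to 2.95%. The limits of the stretch were picked on low counts, which lowers these lines.

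The tiles in all lists followed the same map as the rest. Of the 526, 132 lay in the stretch from 31 to 72 Mb, 318 before it and 76 after it, which was 3.22, 10.3 and 12.5 per megabase. On the other chromosomes there were 8.32 per megabase. All of chromosome 4 had 0.810 times the density of such tiles on the other chromosomes. Outside the stretch it had 1.28 times that density, and the stretch had 0.387 times. The limits of the stretch were picked on counts that include these tiles, and sparse bins were kept on the other chromosomes. Ratios of the parts of chromosome 4 are therefore not a like comparison. The tiles listed in ECs only were the class least depleted in the stretch, at 0.429 times the other chromosomes, and those in HECs only and in HSPCs only were at 0.356 times each. In the stretch, 57.0% of EC tiles were in no other list, against 51.7% in the rest of the chromosome.

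Most listed tiles were isolated, and HSPC tiles adjoined each other most often. On chromosome 4, 22.8% of EC tiles lay next to another tile of the same list (95% exact binomial interval 21.6 to 23.9), 20.6% of HEC tiles (19.4 to 21.8) and 35.97% of HSPC tiles (34.97 to 37.0). On the other chromosomes these shares were 21.8%, 20.1% and 35.1%. Despite its low density the stretch from 31 to 72 Mb had nearly the same shares, at 21.6%, 19.3% and 35.4%, against 23.3%, 21.1% and 36.2% in the rest of chromosome 4. The median distance from one tile's start to the next was 8.0 kb for ECs, 10.5 kb for HECs and 4.0 kb for HSPCs in the stretch, and 5.0, 6.0 and 3.0 kb on the other chromosomes. Its 90th percentile was 71.0, 88.0 and 49.0 kb in the stretch, against 22, 25 and 13 kb on the other chromosomes. Tiles in the stretch thus adjoined another tile about as often as elsewhere, while the median and 90th percentile of the distances were larger.

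The longest run of adjacent tiles within a single list was 11 HSPC tiles at chr4:28882501-28888000, of which 7 were also EC tiles and 3 also HEC tiles. A run of 7 HSPC tiles ended 1 tile before it, so that 18 of the 19 positions of chr4:28878501-28888000 were listed in HSPCs, 10 in ECs and 8 in HECs, with 3 positions in all lists. The tile at chr4:28882001-28882500, between both runs, was in no list. In ECs the longest runs had 6 tiles, at chr4:1261001-1264000, where 5 were also HSPC tiles and 1 a HEC tile, and at chr4:32635001-32638000, where 4 were also HSPC tiles and none a HEC tile. In HECs the longest run had 5 tiles, at chr4:75761001-75763500, with 3 of them in ECs and 3 in HSPCs. These longest runs of one cell type were partly listed in the others, apart from HECs in the second EC run.

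HSPC runs of 7 or more tiles numbered 11 on chromosome 4. Of these, 5 lay in the first 31 Mb, all between 26 and 29 Mb, 5 in the sparse stretch and 1 beyond 72 Mb. The number of such runs on the other chromosomes is not given here, so these counts have no background beside them. After the run of 11 tiles the next longest, with 10, was inside the stretch at chr4:49342501-49347500, where 4 tiles were also in ECs and 1 in HECs. At chr4:57793001-57796500 none of the 7 HSPC tiles was listed in ECs or HECs. Runs of 5 or more HSPC tiles numbered 24 in the stretch and 28 in the rest of the chromosome. On the other chromosomes there were 626 among 201934 HSPC tiles, and the longest had 17 tiles. The stretch therefore held 27.0% of the HSPC tiles and 24 of the 52 runs of this length. The rest of the chromosome was not uniform. There were 10 such runs among 4501 HSPC tiles in the first 25 Mb, and 9 among 1303 from 72 Mb to the end.

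The lists between cell types of siblings gave another view of the same chromosome. They use the sibling samples that also enter the lists between genotypes, so their overlap is given without a test. Of all tile positions, covered by reads or not, 9.54% on chromosome 4 and 13.3% elsewhere were in the union between genotypes. Between HECs and ECs 40 tiles of chromosome 4 were listed, of which 22 (55.0%, 95% exact binomial interval 38.5 to 70.7) were in the union between genotypes, against 66.2% on the other chromosomes. Between HSPCs and HECs 140 were listed, of which 94 (67.1%, interval 58.7 to 74.8) were in the union, against 61.2%. In both of these lists were 5 tiles, 4 of them in the union. The tiles specific to a cell type numbered 5 for ECs, 4 for HECs and 38 for HSPCs, and 3 (60.0%), all 4 and 31 (81.6%) of them were in the union. On the other chromosomes 79.3%, 72.6% and 66.6% of these lists were in the union. Per megabase, chromosome 4 had 0.064, 0.051 and 0.487 tiles specific to ECs, HECs and HSPCs, against 0.190, 0.133 and 0.858 elsewhere. Between HECs and ECs it had 0.512 per megabase against 0.807 elsewhere, and between HSPCs and HECs 1.79 against 2.46.

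Along the chromosome the sibling lists differed in how far they followed the sparse stretch. Of the 140 tiles between HSPCs and HECs, 44 lay in it (31.4%, 95% exact binomial interval 23.9 to 39.8), near the 28.0% of the union. Of the 40 between HECs and ECs, 18 did (45.0%, 29.3 to 61.5). Of the 38 HSPC-specific tiles only 4 did (10.5%, 2.94 to 24.8), and 34 lay outside it. Per megabase this was 0.0976 HSPC-specific tiles in the stretch, 0.917 in the rest of chromosome 4 and 0.858 on the other chromosomes. Among the lists with 38 or more tiles, HSPC-specific tiles had the lowest share in the stretch, resting on 4 tiles. The interval of this share overlapped that of the list between HSPCs and HECs. The limits of the stretch were picked on counts of tiles between genotypes, and 31 of the 38 HSPC-specific tiles were in that union. Their scarcity in the stretch is therefore not independent of that choice. Whether reads covered as many tiles there could not be read from the lists.

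**Figure D5:**
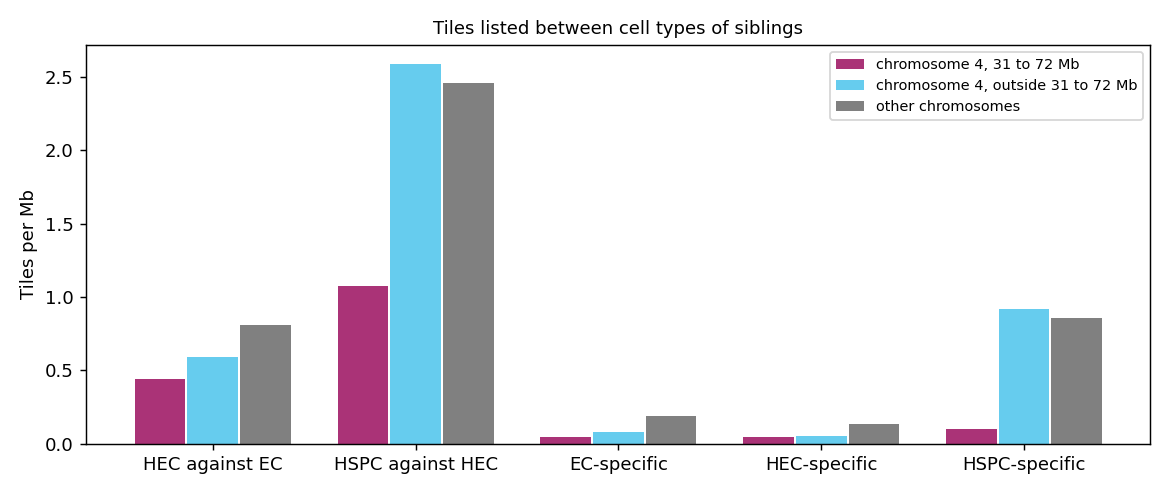
Tiles per megabase listed between cell types of siblings or as specific to a cell type (bars) for the stretch from 31 to 72 Mb of chromosome 4, the rest of chromosome 4 and the other chromosomes. HSPC-specific tiles stand at 0.0976 in the stretch and at 0.917 in the rest of the chromosome.

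A single tile was in all 3 lists between genotypes and in a list between sibling cell types. It was chr4:8430001-8430500, which was listed between HECs and ECs.

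Alternate scaffolds that GRCz11 assigns to chromosome 4 were not counted among its tiles. The union held 245 tiles on 16 of them, of 11260 tiles on 874 alternate scaffolds of all chromosomes. How reads that match both a scaffold and the chromosome were placed is not given in the sources used here.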

How the data were processed

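The authors trimmed WGBS reads with Trim Galore, aligned them to GRCz11 with BS-Seeker2 2.1.8, removed PCR duplicates and averaged methylation over consecutive 500 bp tiles. Per the study's methods, a tile was listed when the groups differed by over 0.2 in methylation level with a Benjamini-Hochberg adjusted *P*-value under 0.05, using CpGs recovered in both groups. The deposited lists give tile coordinates only. Tiles without enough reads, as can happen in low-input libraries and in repeats, cannot be listed, and the lists do not say which these were.

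Tiles were read from 3 lists between genotypes and 5 lists of siblings, checked to lie on 1 grid without repeats, and counted in 1 Mb bins from base 1. Tiles were shared when they overlapped by at least 1 bp, which on this grid means that they were identical. Intervals are 95% exact binomial intervals (Clopper-Pearson). The counting of bins, runs and overlaps was checked for errors on simulated lists with known answers, which enter no result. Python 3.11.15, numpy 2.4.6, scipy 1.17.1 and matplotlib 3.10.9 were used. Named regions were the 5 densest and 5 sparsest bins, the longest run and longest gap of each list, and tiles in all lists and a sibling list. Regions named beyond this rule were chosen after their values were seen. The regions and comparisons were chosen with earlier results of these data known. Alternatives were other bin widths, boundaries, overlap rules and run rules. RNA-seq counts of 16 libraries and the authors' tables of fold changes for selected genes were not used here.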

Additional observations from a re-analysis of the deposited data

How the results depend on the processing

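Of 43 alternatives to 17 results, 21 stayed within the counting interval of the reported value and 22 moved beyond it. Some of the 21 could not move and carry no information on stability. These were identical start and end, bins with a tile only, and a span from the lists between genotypes alone. On this grid overlap means identity, no bin was empty, and the union itself reached the end of the span. Many of the 22 could move in a single direction only, so the counts of 21 and 22 do not measure stability. Merging can only lower a count per megabase, and leaving out the sparse stretch can only raise it. Sharing within 1 kb and runs that may skip 1 tile can only raise a share. Merging adjacent tiles gave 61.2, 54.6 and 91.0 regions per megabase in ECs, HECs and HSPCs. On the other chromosomes merging gave 84.2, 75.8 and 128, so chromosome 4 stayed sparser than these. Leaving out 31 to 72 Mb, an alternative chosen after seeing the data, gave 103, 94.2 and 177 tiles per megabase. Bins of 500 kb put 22.7% of the union in the sparser 50% of the bins. A boundary at 20 Mb gave a ratio of 0.449 in HSPCs, and setting 25 to 72 Mb against the first 25 Mb, also chosen after seeing the data, gave 0.434, 0.384 and 0.375 in ECs, HECs and HSPCs. With tiles within 1 kb counted as shared, 48.6% of EC tiles had a HEC tile that near. An HSPC tile lay that near 68.5% of EC tiles and 69.95% of HEC tiles. Of the sibling tiles between HECs and ECs and between HSPCs and HECs, 87.5% and 84.3% had a tile of the union that near. More positions lie within 1 kb of a listed tile than in a list. The share of such positions was not computed, so these values have no background beside them. Among merged regions the first 3 shares were 22.8%, 37.8% and 38.8%. Runs that may skip 1 tile held 34.2%, 30.8% and 49.0% of tiles in ECs, HECs and HSPCs. Chromosome 4 beyond each boundary tried stayed sparser than before it. Each of these boundaries left the whole stretch from 31 to 72 Mb beyond it, so this carries little information on stability. A stricter threshold and leaving out each replicate were not run, because the lists hold no values per tile or sample. No paired analysis was possible because the lists pool the replicates of a group.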
